A study of Mus musculus with 8 samples.

Results

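The genes described here are 9 genes of the NF-kB and Toll-like receptor pathway, read through all 18 of their probe sets on an expression array of sorted mouse bone marrow progenitors. They were chosen by name from a list of 10 symbols (Nfkbia, Nfkb1, Nfkb2, Rel, Rela, Relb, Tnfaip3, Il1b, Tlr2 and Tlr4), taking every probe set that the platform annotation gives exactly 1 gene symbol; Nfkb1 was not analysed here. The 18 probe sets stand among 34945 single-symbol probe sets, and the 9 genes among 18193 genes. Each gene was read through its brightest probe set, and was tested only where that probe set had a signal of 50 or more on 2 or more of the 8 arrays. Of the 9 genes, 5 were tested (Nfkbia, Rela, Tnfaip3, Tlr2 and Tlr4), among 8886 genes tested in all, and Nfkb2, Rel, Relb and Il1b stayed below that signal.

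The study compared mice with intact and with dysfunctional telomeres in common myeloid progenitors (CMP) and in granulocyte-monocyte progenitors (GMP), the stage downstream of CMP on the way to neutrophils and monocytes. The normal mice were G0 TERTER/+, with 1 copy of an allele that fuses telomerase reverse transcriptase to the estrogen receptor, and the telomere-dysfunctional mice were G4/G5 TERTER/ER, late generations homozygous for it, so that every group carried the fusion allele. All mice were male and, in the spelling of the labels, of a mainly C576BL/6 background; their ages are not given in the sources used here. Each of the 4 groups, CMP and GMP of either genotype, held 2 arrays, pool 1 and pool 2, each from cells of 4 mice pooled by matched age and sex, with 5000 to 20000 sorted cells a sample. The p-values therefore measure the spread between pools, and in such bulk samples fewer cells of a type and less RNA per cell cannot be told apart.

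NF-kB is a family of dimeric transcription factors built from the subunits Rela, Rel, Relb and the processed products of Nfkb1 and Nfkb2. In resting cells inhibitory IkB proteins such as the product of Nfkbia hold the dimers in the cytoplasm. Toll-like receptors, which bind microbial molecules, and interleukin-1 receptors signal through the adaptor Myd88 to the IkB kinases, which mark the inhibitor for destruction and free the dimers. The freed dimers switch on cytokine genes such as Il1b, and also Nfkbia and Tnfaip3, whose products shut the pathway down again. Myeloid progenitors carry Toll-like receptors themselves, and signals through them are known to push these cells toward monocytes and neutrophils.

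The promoters of several of these genes hold letters that match the motif NF-kB binds. RefSeq promoter windows (build GRCm38.p6, 250 bases before to 50 after an annotated start) were matched by symbol for 7 of the 9 genes, 10 windows in all. A search for the kB consensus on both strands, with overlapping matches counted, found it in 7 of the 10 windows and in 5 of the 7 genes. Several of these windows belong to Nfkb2. Of all promoters, 8.46% of 32851 windows and 9.55% of 27025 genes held it. For each of the 5 genes 1 stretch of its first listed window is shown because it holds matches, 5′ to 3′ on the strand of the gene with the matches in capitals; other matches lie outside these stretches and are given by position. The Il1b stretch is shown because it held no match; its capitals mark TATAAA, the letters of the TATA box, found on either strand in 13.6% of all windows. Positions count back from the base before the annotated start, which is -1, and forward from the start, which is 1. Rela, shown by name only, held no kB match in its window.
Nfkbia (inhibitor, chr12:55492648-55492747, minus strand, -100 to -1): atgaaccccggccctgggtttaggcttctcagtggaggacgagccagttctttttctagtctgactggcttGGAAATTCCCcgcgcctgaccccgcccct
Tnfaip3 (inhibitor, chr10:19015411-19015550, minus strand, -140 to -1): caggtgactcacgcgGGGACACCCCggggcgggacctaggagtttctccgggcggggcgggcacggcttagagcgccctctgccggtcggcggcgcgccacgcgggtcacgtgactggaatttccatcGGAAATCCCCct
Nfkb2 (subunit, chr19:46304657-46304736, plus strand, -80 to -1): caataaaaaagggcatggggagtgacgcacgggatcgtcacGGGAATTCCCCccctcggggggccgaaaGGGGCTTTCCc
Rel (subunit, chr11:23771000-23771099, minus strand, -130 to -31): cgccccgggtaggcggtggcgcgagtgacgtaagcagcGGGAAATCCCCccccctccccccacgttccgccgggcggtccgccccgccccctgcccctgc
Tlr2 (receptor, chr3:83841709-83841808, minus strand, -200 to -101): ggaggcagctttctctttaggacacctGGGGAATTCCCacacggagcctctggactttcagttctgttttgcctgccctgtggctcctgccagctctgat
Il1b (cytokine, chr2:129371140-129371219, minus strand, -80 to -1): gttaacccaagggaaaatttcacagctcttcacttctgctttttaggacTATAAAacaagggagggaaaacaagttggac
The Nfkbia match lies at -29 to -20, the Tnfaip3 matches at -125 to -116 and at -12 to -3, and the Nfkb2 matches at -39 to -29 and at -11 to -2. In Rel the match lies at -92 to -82 and in Tlr2 at -173 to -163. Not shown are a further Tlr2 match at -8 to 2, across the start, and matches in the other Nfkb2 windows, at -236 to -227 and 11 to 20 in the window of start site 2 and at -225 to -216 in that of start site 3. These matches are letters in a window and were not tested as binding sites here.

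The array labels were checked against genes that define the sorted cells. Kit, a stem and progenitor receptor, had signals of 1149 to 2214 in CMP and 723 to 839.6 in GMP, and Cd34 of 880.2 to 2459 on all 8 arrays. Fcgr3, part of the surface marker that separates GMP from CMP, read 732 to 1457 on the 4 GMP arrays and 38.7 to 83.9 on 3 of the 4 CMP arrays, but 617 on G4/G5 CMP pool 1. On that array 11 maturing neutrophil genes summed to 56578, against 246 to 326 on the other 3 CMP arrays, and in GMP to 1513 and 3386 for G0 and to 29695.5 and 32353 for G4/G5. On G0 CMP pool 2 a list of 10 immediate early genes summed to 7481, against 475 to 831 on the other 7 arrays. These 2 arrays stand apart, and values with one of them left out are given beside the results that it changes. Signals were scaled by the submitters to a common target, and the median signal of an array ran from 14.3 to 18.5, so signals near that range may be background. The gene modified in these mice, Tert, had 2 probe sets with signals of 0.349 to 14.9, and since the allele is a fusion and not a deletion they do not check the labels.

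Of the 5 tested genes, 2 differed past the threshold between the progenitor stages and 0 between the genotypes. In GMP Tlr4 was called higher and Tnfaip3 lower than in CMP in both genotypes, while Nfkbia, Rela and Tlr2 passed in neither. Tlr4 passed the signal filter only through its GMP arrays, so a gene low in CMP had to be higher in GMP to be tested. With no filter neither gene was called in G0, and only Tlr4 was called in G4/G5. Differences are on the log2(signal + 10) scale, which understates changes of dim genes, and were tested with limma across all 8886 genes with Benjamini-Hochberg adjustment at 0.05. In G0, 1 of the 5 was called higher and 1 lower in GMP, where 20.8% of all genes were called (10.6% higher and 10.2% lower). In G4/G5 the count was again 1 higher and 1 lower, with 10.5% of all genes called (4.18% higher and 6.29% lower). At an unadjusted p under 0.05, 3 of the 5 genes were reached in G0 (36.5% of all genes) and 2 of the 5 in G4/G5 (29.4%). GMP arrays lay above CMP arrays without overlap for 2 of the 5 genes in each genotype (32.2% of all genes in G0 and 27.7% in G4/G5) and below them for 3 in G0 (33.1%) and 2 in G4/G5 (33.0%).

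The comparison of G4/G5 with G0 gave 0 of 5 calls by limma in CMP, in GMP and in the mean of both. Of all genes, 0.0113% were called in CMP, 0.0% in GMP and 0.0338% in the mean, so few genes of any kind passed these tests. At an unadjusted p under 0.05, 1 of the 5 genes was reached in CMP (13.4% of all genes), 0 in GMP (7.87%) and 1 in the mean (17.8%); that gene was Tnfaip3. Both G4/G5 arrays lay above both G0 arrays for 2 of the 5 genes in CMP (21.7% of all genes) and 4 of the 5 in GMP (28.8%), and below them for 0 of the 5 in either (14.9% and 26.5% of all genes). The members' median difference was 0.16 in CMP, 0.20 in GMP and 0.21 in the mean, beside medians over all genes of 0.04, 0.01 and 0.02. The effect of genotype was not shown to differ between CMP and GMP for any of the 5 genes (0 of 5 called, 0 at an unadjusted p under 0.05, against 3.97% of all genes).

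**Figure D1:**
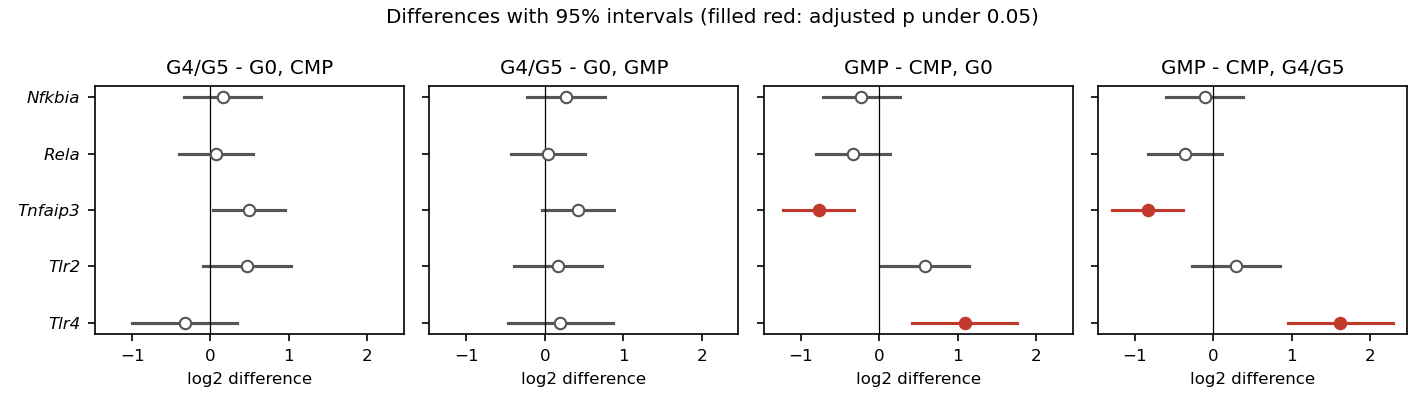
Differences of the 5 tested genes on the log2(signal + 10) scale, with 95% intervals from the limma fit, for G4/G5 minus G0 in each progenitor and for GMP minus CMP in each genotype. The filled red points, Tnfaip3 below 0 and Tlr4 above 0 in both right panels, passed the threshold, and every genotype point except Tnfaip3 in CMP has an interval that spans 0.

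Tlr4, the receptor for bacterial lipopolysaccharide, was read by probe set 1418162_at. Its signal was 21.0 and 28.9 on the G0 and 24.8 and 12.0 on the G4/G5 arrays of CMP, and 66.9 and 61.3 on the G0 and 75.1 and 74.8 on the G4/G5 arrays of GMP, for pools 1 and 2. All 4 GMP arrays lay above all 4 CMP arrays. A looser pattern, GMP above CMP without overlap within each genotype, was seen in 20.4% of all genes. On the scale used the difference in G0 was 1.09 ± 0.29 (SE; 2.13-fold; limma adjusted p = 0.0338), and in G4/G5 it was 1.62 ± 0.29 (3.07-fold; adjusted p = 0.0152). The CMP signals were close to the array medians, so these folds depend on the added 10 and are not exact. Tlr4 passed the signal filter only through its GMP arrays, so a gene low in CMP had to be higher in GMP to be tested at all; with no filter the adjusted p was 0.0641 in G0 and the call in G4/G5 remained. The G0 call was also lost without any 1 of 6 arrays, those of G0 CMP, G0 GMP and G4/G5 GMP (0.93 to 1.25, adjusted p = 0.0576 to 0.204), and the G4/G5 call without either G4/G5 GMP array (adjusted p = 0.157 and 0.116).

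Ordered by mean, the Tlr4 signal was lowest in G4/G5 CMP at 18.4 ± 9.05 (SD, n = 2), then 24.9 ± 5.52 in G0 CMP, 64.1 ± 3.96 in G0 GMP and highest in G4/G5 GMP at 75.0 ± 0.166. Neighbours within a progenitor type were not shown to differ: G4/G5 minus G0 was -0.33 ± 0.29 in CMP (adjusted p = 0.657; -0.17 with G0 CMP pool 2 left out, -0.66 with G4/G5 CMP pool 1 left out) and 0.20 ± 0.29 in GMP (adjusted p = 0.865), although the G4/G5 GMP arrays lay above the G0 GMP arrays. The effect of genotype in GMP minus that in CMP was 0.53 ± 0.41 (adjusted p = 0.994), or 0.86 without G4/G5 CMP pool 1. The other 3 Tlr4 probe sets stayed below the filter. Of these, 1418163_at ran from 24.3 to 33.8 in CMP and from 37.9 to 63.1 in GMP, with the same order of the stages. Probe set 1442827_at was higher in GMP without overlap in G0 only, and 1430695_at was lower in GMP in both genotypes, at signals of 0.996 to 7.50 throughout.

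Tlr2, the receptor for bacterial lipopeptides, was read by its only probe set, 1419132_at. It read 30.5 and 50.04 on the G0 and 63.8 and 53.1 on the G4/G5 arrays of CMP, and 64.7 and 63.2 on the G0 and 71.1 and 75.6 on the G4/G5 arrays of GMP. Within each progenitor both G4/G5 arrays lay above both G0 arrays, and within each genotype both GMP arrays lay above both CMP arrays. The first pattern, in both progenitors, was shared by 10.3% of all genes and the second, in both genotypes, by 20.4%. No Tlr2 difference passed the limma test: G4/G5 minus G0 was 0.47 ± 0.25 in CMP (95% interval -0.09 to 1.03, adjusted p = 0.444) and 0.17 ± 0.25 in GMP (adjusted p = 0.863). GMP minus CMP was 0.59 ± 0.25 in G0 (adjusted p = 0.124) and 0.29 ± 0.25 in G4/G5 (adjusted p = 0.465), and after quantile normalization the G0 value was 0.82 with an adjusted p of 0.0448. These sizes moved with the G0 CMP arrays: the genotype difference in CMP was 0.18 without pool 1 and 0.75 without pool 2 (adjusted p = 0.825 and 0.158), and GMP minus CMP in G0 was 0.30 and 0.87 (adjusted p = 0.391 and 0.0596). The mean was lowest in G0 CMP at 40.3 ± 13.8, followed by G4/G5 CMP at 58.4 ± 7.55, G0 GMP at 64.0 ± 1.03 and G4/G5 GMP at 73.4 ± 3.21, with no tested pair of groups past the threshold.

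Monocyte markers were measured beside the receptors. Of 13 monocyte and macrophage markers, 11 had a probe set and 6 reached the filter signal, and their summed signal was 881 and 2073 on the G0 and 3520 and 3156 on the G4/G5 arrays of CMP, and 2898 and 3976 on the G0 and 4369 and 5531 on the G4/G5 arrays of GMP. That sum came mostly from Csf1r and F13a1. Within the list, Cd68 ran from 39.9 to 210.1 and Adgre1 from 8.11 to 89.8. Both were lowest on G0 CMP pool 1 and highest on G4/G5 GMP pool 2. Not all members followed: Cx3cr1 read 78.9 and 92.6 in G0 GMP against 27.3 and 48.9 in G4/G5 GMP. Fcgr1, dim throughout, was highest on G0 CMP pool 1 at 20.5. The complement genes C1qa, C1qb and C1qc, made by tissue macrophages, stayed between 0.524 and 14.0. The 7 granulocyte and monocyte progenitor markers summed to 6417 and 13223 for G0 and 24852 and 20939.9 for G4/G5 in CMP, and to 31372 to 36662 on the 4 GMP arrays. The maturing neutrophil genes summed to 1513 and 3386 in G0 GMP, to 29695.5 and 32353 in G4/G5 GMP and to 56578 on G4/G5 CMP pool 1. The part of all these markers in the receptor signals was not tested.

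**Figure D2:**
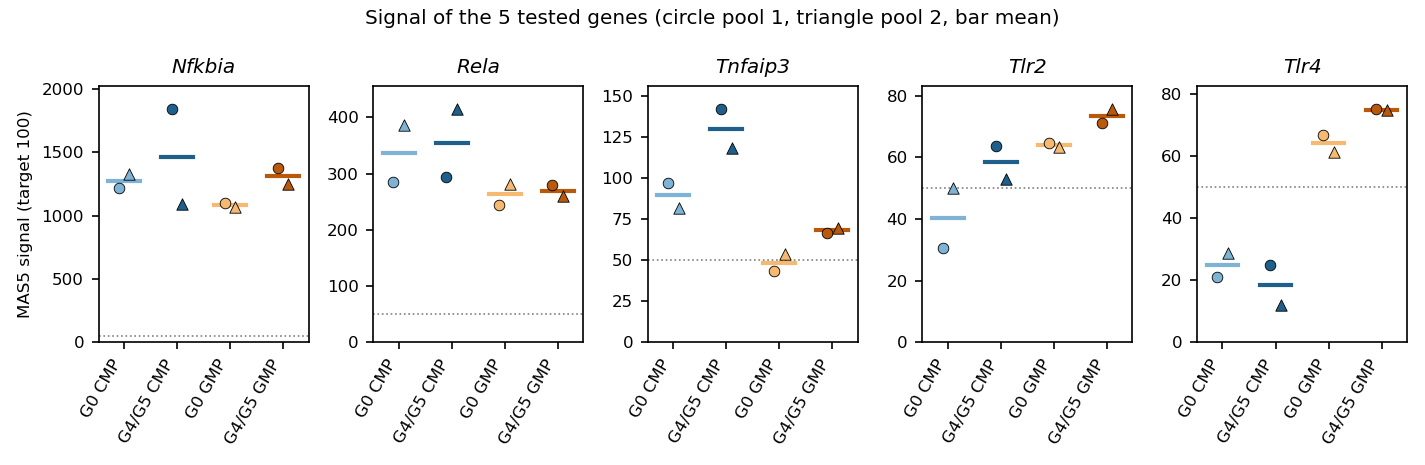
Signal of the 5 tested genes on each array by group, with circles for pool 1, triangles for pool 2, a bar for the group mean and a dotted line at the filter signal of 50. Tlr4 exceeds 50 on the 4 GMP arrays and no other, Tnfaip3 is highest in G4/G5 CMP, and Nfkbia spreads from 1092 to 1841 within G4/G5 CMP.

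Among the subunits, only Rela was bright enough to test. Rela encodes p65, the transactivating subunit of the canonical dimer, and its probe set 1419536_a_at read 286 and 386 on the G0 and 293 and 414 on the G4/G5 arrays of CMP, and 244 and 282 on the G0 and 279 and 259 on the G4/G5 arrays of GMP. The genotypes overlapped in both progenitors, while every GMP array lay below every CMP array. In CMP pool 2 was the higher array in both genotypes. The G4/G5 minus G0 difference was 0.07 ± 0.21 in CMP (95% interval -0.40 to 0.54, adjusted p = 0.910) and 0.04 ± 0.21 in GMP (interval -0.44 to 0.51, adjusted p = 0.968). With G0 CMP pool 2 left out the CMP value was 0.28, and with G4/G5 CMP pool 1 left out 0.31. GMP minus CMP was -0.33 ± 0.21 in G0 (limma adjusted p = 0.279) and -0.36 ± 0.21 in G4/G5 (adjusted p = 0.274). The separation of the stages thus did not pass. A looser pattern, GMP below CMP without overlap within each genotype, was seen in 22.6% of all genes. The G0 value was -0.54 without G0 CMP pool 1 and -0.12 without pool 2, and the G4/G5 value -0.61 without G4/G5 CMP pool 1 (adjusted p = 0.129, 0.753 and 0.0818).

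The other subunits were near the array median. Rel, the lymphoid and myeloid subunit c-Rel, read 16.9 and 24.03 on the G0 and 17.99 and 22.9 on the G4/G5 arrays of CMP, and 29.6 and 21.7 on the G0 and 28.003 and 23.0 on the G4/G5 arrays of GMP. Its genotype differences were 0.0054 in CMP and -0.00063 in GMP, within the spread of its pools. Relb, the subunit of the noncanonical dimer, ran from 1.55 to 16.9 and was lowest in G4/G5 GMP, at 1.55 and 6.04, below both G0 GMP arrays (9.09 and 6.71) and both G4/G5 CMP arrays. Fitted with no filter, GMP minus CMP of Relb in G4/G5 was -0.67 ± 0.30 (adjusted p = 0.277).

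Nfkb2, whose product p100 is processed to the partner of Relb, had 2 probe sets, both below the filter. The brighter, 1429128_x_at, read 21.8 and 57.1 on the G0 and 43.4 and 23.3 on the G4/G5 arrays of CMP, and 22.2 and 31.7 on the G0 and 43.2 and 35.9 on the G4/G5 arrays of GMP. G0 CMP held both the lowest and the highest signal, and in GMP both G4/G5 arrays lay above both G0 arrays. That GMP difference was 0.43 ± 0.41 with no filter (adjusted p = 0.882). The dimmer set, 1425902_a_at, ran from 2.59 to 26.9 with overlapping genotypes in both progenitors.

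**Figure D3:**
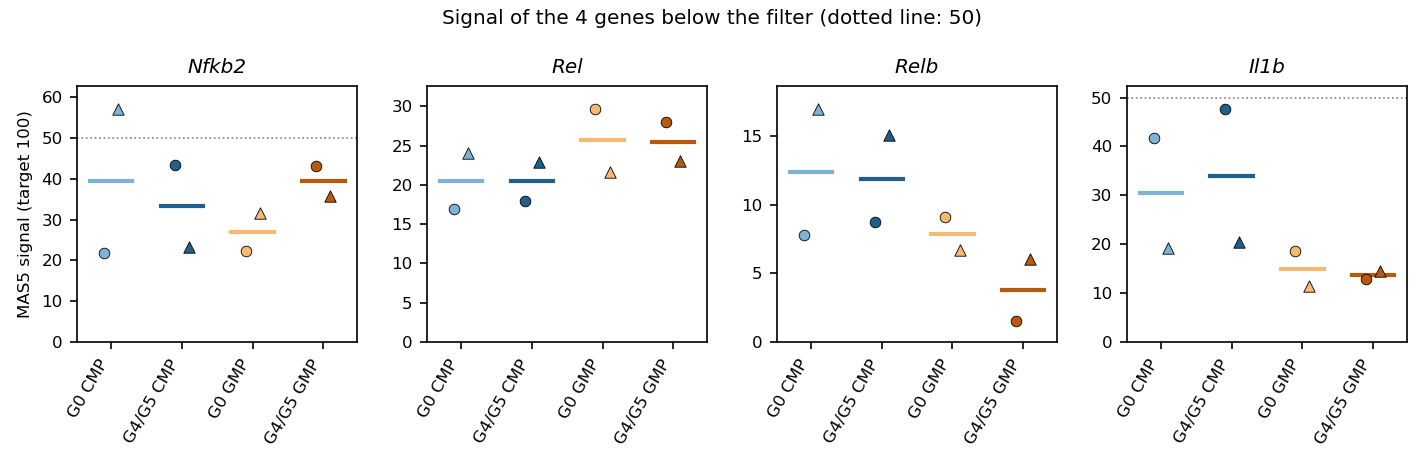
Signal of the 4 genes below the filter, each by its brightest probe set, by group, with circles for pool 1, triangles for pool 2, a bar for the group mean and a dotted line at 50 where it falls within the axis. Only 1 array, G0 CMP pool 2 for Nfkb2, exceeds 50, and the 2 highest Il1b signals, 41.8 and 47.6, are the pool 1 arrays of CMP.

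Of the inhibitors, Tnfaip3 separated all 4 groups. Tnfaip3 encodes A20, a ubiquitin-editing enzyme that cuts off signalling from Toll-like and TNF receptors, and its probe set 1433699_at read 97.1 and 81.9 on the G0 and 142 and 118 on the G4/G5 arrays of CMP, and 43.1 and 53.8 on the G0 and 66.8 and 69.3 on the G4/G5 arrays of GMP. No array of a group overlapped another group, and the share of all genes so separated was not counted. Looser patterns were common. GMP lay below CMP without overlap in both genotypes for 22.6% of all genes, and G4/G5 above G0 in both progenitors for 10.3%. GMP lay below CMP by -0.77 ± 0.20 in G0 (1.71-fold lower, limma adjusted p = 0.0299) and by -0.84 ± 0.20 in G4/G5 (1.79-fold lower, adjusted p = 0.0359). Both calls were lost with no filter (adjusted p = 0.0660 and 0.0759) and after quantile normalization (0.0816 and 0.0616). The G0 call was lost without any 1 of the G0 CMP, G0 GMP and G4/G5 GMP arrays (-0.90 to -0.64, adjusted p = 0.0527 to 0.206), and the G4/G5 call without G4/G5 CMP pool 1 (-0.72, adjusted p = 0.0743) or any 1 of the GMP arrays (adjusted p = 0.0666 to 0.240).

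G4/G5 minus G0 of Tnfaip3 was 0.49 ± 0.20 in CMP (95% interval 0.04 to 0.95, limma adjusted p = 0.351) and 0.42 ± 0.20 in GMP (interval -0.03 to 0.88, adjusted p = 0.633). The mean of both was 0.46 ± 0.14 (interval 0.14 to 0.78, adjusted p = 0.206), the largest of the 5 genes. Higher signal in G4/G5 without overlap in both progenitors was found in 10.3% of all genes, so Tnfaip3 shared it with many others. Without G4/G5 CMP pool 1 the CMP difference was 0.37 (adjusted p = 0.583), and the difference between the genotype effects in GMP and CMP was -0.07 ± 0.28 (adjusted p = 0.997), turning to 0.054 without that array. The order of the means was 48.4 ± 7.57 in G0 GMP, 68.0 ± 1.80 in G4/G5 GMP, 89.5 ± 10.7 in G0 CMP and, highest, 130.0 ± 16.7 in G4/G5 CMP. A dimmer probe set of the gene, 1450829_at, ran from 2.68 to 10.2, and its groups overlapped in all 4 comparisons.

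Nfkbia encodes IkB-alpha, the inhibitor that is itself made when NF-kB is active. Probe set 1420088_at read 1216 and 1331 on the G0 and 1841 and 1092 on the G4/G5 arrays of CMP, and 1101 and 1069 on the G0 and 1374 and 1249 on the G4/G5 arrays of GMP. The highest signal and the next to lowest both came from G4/G5 CMP, and in GMP both G4/G5 arrays lay above both G0 arrays. G4/G5 minus G0 was 0.16 ± 0.22 in CMP (95% interval -0.34 to 0.65, adjusted p = 0.796) and 0.27 ± 0.22 in GMP (interval -0.22 to 0.76, adjusted p = 0.744). The CMP value turned to -0.22 without G4/G5 CMP pool 1 and was 0.53 without pool 2 (adjusted p = 0.575 and 0.0693), and without that pool 2 the mean over both progenitors was 0.40 and passed (adjusted p = 0.0357). GMP minus CMP was -0.23 ± 0.22 in G0 (adjusted p = 0.478) and -0.11 ± 0.22 in G4/G5 (adjusted p = 0.761), the latter turning to 0.26 without G4/G5 CMP pool 1.

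All 5 Nfkbia probe sets passed the filter, and the groups overlapped or stood apart alike for all 5 in 3 of the 4 comparisons. In G0 all 5 were lower in GMP than in CMP without overlap, and in GMP 4 of 5 were higher in G4/G5 than in G0 without overlap. In CMP the genotypes overlapped for all 5, where 1438157_s_at gave 827 and 1003 for the G0 arrays, between the G4/G5 arrays at 1264 and 716. In each of the 5, G4/G5 CMP pool 1 held the highest signal of all 8 arrays. That array also had the highest sum of maturing neutrophil genes, 56578, and the part of those genes was not tested. These probe sets read the same transcript and are no replicates of each other. By mean of the brightest set the order was 1085 ± 22.7 in G0 GMP, 1273 ± 81.6 in G0 CMP, 1312 ± 88.2 in G4/G5 GMP and 1466 ± 529.7 in G4/G5 CMP, with no tested pair past the threshold.

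**Figure D4:**
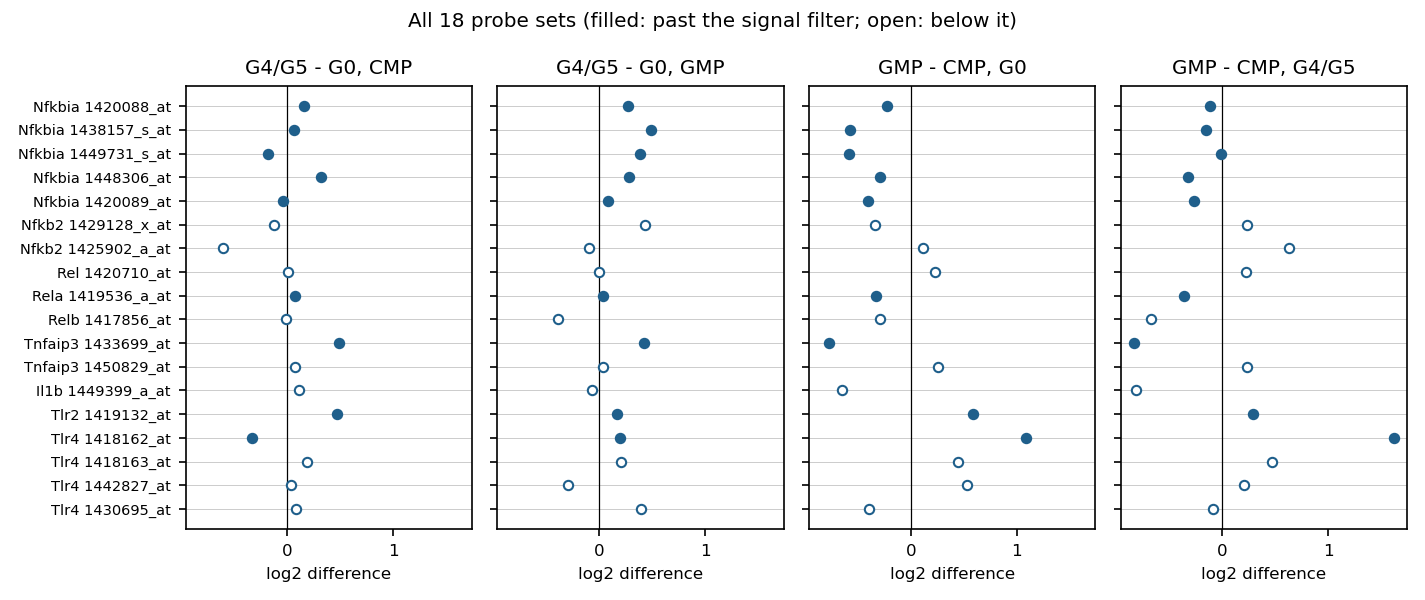
Log2 differences of all 18 probe sets of the 9 genes in the 4 comparisons of a pair of groups, filled where the probe set reached a signal of 50 on 2 arrays. The 5 Nfkbia probe sets lie below 0 in G0 GMP against CMP, and in the same comparison the Tlr4 sets spread from below 0 to 1.09.

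Il1b, the cytokine and classic NF-kB target, stayed below the filter on every array. Its signal was 41.8 and 19.1 on the G0 and 47.6 and 20.4 on the G4/G5 arrays of CMP, and 18.6 and 11.4 on the G0 and 12.97 and 14.5 on the G4/G5 arrays of GMP. In CMP the pool 1 array was the higher in both genotypes, and every GMP array lay below every CMP array. Of the genes tested, 22.6% had GMP below CMP without overlap within each genotype, a looser pattern. Fitted with no filter, GMP minus CMP was -0.65 ± 0.40 in G0 (adjusted p = 0.415) and -0.82 ± 0.40 in G4/G5 (adjusted p = 0.318), and G4/G5 minus G0 was 0.11 ± 0.40 in CMP (adjusted p = 0.958) and -0.06 ± 0.40 in GMP (adjusted p = 0.992).

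The rest of the pathway was read through 6 lists of other genes. Of 122 listed genes, 113 had a probe set and 74 were tested; none was called between the genotypes in CMP, in GMP or in the mean of both. Of the 36 genotype differences followed through the alternatives for the genes named from these lists, 15 passed in at least 1 alternative and 3 in more than 1: Ly86 in CMP in 6 of 20, Il1r2 in GMP in 3 of 20 and Lbp in the mean in 2 of 19. At an unadjusted p under 0.05 the count was 8 of 74 in CMP and 5 of 74 in GMP, beside the 13.4% and 7.87% of all genes given above. Between the stages 12 genes were called higher and 9 lower in GMP in G0, and 4 higher and 3 lower in G4/G5. These are 28.4% and 9.46% of the genes tested in the lists, beside 20.8% and 10.5% of all genes, so the share in G4/G5 was near that of all genes. Without G0 CMP pool 2, 9 of the 21 G0 calls were lost (Cd14, Hsp90b1, Myd88, Il1r1, Commd1, Nfkbie, Itch, Sod2 and Ier3), and without G4/G5 CMP pool 1, 2 of the 7 G4/G5 calls (Hsp90b1 and Birc2).

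The list of other Toll-like receptors and their accessory proteins held 18 genes, and none of its Tlr genes was tested. The 8 genes tested were Cd14, Ly96, Ly86, Cd180, Lbp, Unc93b1, Hsp90b1 and Cnpy3. Of these, 4 rose from CMP to GMP in G0, where 10.6% of all genes were called higher, and 0 were called lower, with a list median of 0.67 against -0.02 over all genes. Below 0 were Cd180 at -0.86 (adjusted p = 0.0851) and Ly96, the partner of Tlr4, at -0.50 (adjusted p = 0.257). Cd14, the lipopolysaccharide co-receptor of Tlr4, read 12.7 and 6.06 in G0 CMP and 85.6 and 105 in G0 GMP, a difference of 2.46 ± 0.51 (adjusted p = 0.0147). Both G0 CMP signals lay below the array medians, so the size depends on the added 10 and ran from 2.21 to 3.28 over the alternatives. In CMP only G4/G5 pool 2, at 98.6, reached the filter signal, so Cd14 passed the filter only with its GMP arrays. A gene low in G0 CMP thus had to be higher elsewhere to be tested. Lbp, which hands lipopolysaccharide to Cd14, rose by 1.82 ± 0.26 (adjusted p = 0.00489), and Ly86, partner of the Toll-like protein Cd180, by 1.04 ± 0.19 (adjusted p = 0.0103). Hsp90b1, the chaperone that folds Toll-like receptors, rose by 0.67 ± 0.15 (adjusted p = 0.0183) and was the only gene of the list called in G4/G5 as well (0.63 ± 0.15, adjusted p = 0.0342).

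In G4/G5 the list median of GMP minus CMP was -0.27, below that in G0. Cd14 read 40.7 and 98.6 in G4/G5 CMP, and Ly86 826 and 732 there against 201 and 285 in G0 CMP, with the G4/G5 arrays above the G0 arrays for both genes. Neither difference passed the threshold (1.96 ± 0.51, adjusted p = 0.257, and 1.66 ± 0.19, adjusted p = 0.0606), but with G0 CMP pool 2 left out Ly86 stood at 1.90 and passed (adjusted p = 0.0144). In CMP 7 of the 8 genes were above 0, with a median of 0.91 against 0.04 over all genes, and 4 of 8 reached an unadjusted p under 0.05, beside 13.4% of all genes. The monocyte sum, 881 and 2073 in G0 CMP against 3520 and 3156 in G4/G5 CMP, was also higher in G4/G5, as was the sum of the granulocyte and monocyte progenitor markers given above, and their part was not tested. In GMP the list median of G4/G5 minus G0 was 0.22, with Unc93b1, which carries Toll-like receptors to endosomes, at 0.61 ± 0.43 (adjusted p = 0.715) and the chaperone Cnpy3 at -0.58 ± 0.28 (adjusted p = 0.633).

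In Toll and interleukin-1 receptor signalling, 18 genes were tested. In G0, Myd88, the adaptor shared by most of these receptors, rose from 238 and 223 in CMP to 447.5 and 327 in GMP (0.71 ± 0.18, adjusted p = 0.0303). Peli1, a ubiquitin ligase of the receptor complex, fell by 1.08 on the log2 scale (adjusted p = 0.00683), the interleukin-1 receptor Il1r1 by 0.81 (adjusted p = 0.0406) and the kinase adaptor Tab3 by 0.60 (adjusted p = 0.0325). Peli1 was the only call in G4/G5, reading 266 and 312 in CMP against 125 and 121.2 in GMP (-1.16 ± 0.17, adjusted p = 0.00793). The list medians of GMP minus CMP were 0.06 in G0 and -0.11 in G4/G5.

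Il1r2, the decoy receptor for interleukin-1, had the largest genotype differences of that list, at 1.63 ± 1.08 in CMP (adjusted p = 0.537) and 2.97 ± 1.08 in GMP (adjusted p = 0.595). It read 188 on G4/G5 CMP pool 1 and 142 and 86.1 in G4/G5 GMP, and 1.51 to 9.72 on the other 5 arrays. Il1r2 thus passed the signal filter only through G4/G5 arrays, so a gene low in G0 had to be higher in G4/G5 to be tested at all. Its G0 signals lay below the array medians, so the sizes depend on the added 10. Over the alternatives the GMP difference ran from 2.62 to 4.28. The arrays with Il1r2 signal were the 3 with the highest sums of neutrophil markers, and the part of these markers was not tested. Without G4/G5 CMP pool 1 the CMP difference was -0.42. The GMP difference kept its size of 2.97 in that fit but passed the threshold, and that fit was among the 3 of 20 alternatives where it passed. The list medians of G4/G5 minus G0 were 0.13 in CMP and 0.03 in GMP.

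Among IkB kinases, noncanonical pathway genes and TNF receptors, 14 were tested and the same pair of genes was called in both genotypes. Ikbke, a kinase related to the IkB kinases, read 34.9 and 56.7 in G0 CMP against 97.5 and 109 in G0 GMP (1.05 ± 0.26, adjusted p = 0.0245) and rose by 1.04 ± 0.26 in G4/G5 (adjusted p = 0.0394). Birc2, the ubiquitin ligase cIAP1, read 357 and 406 in G0 CMP against 192 and 205 in G0 GMP (-0.91 ± 0.14, adjusted p = 0.00681) and fell by 0.63 in G4/G5 (adjusted p = 0.0325). The largest genotype differences were Ikbke in CMP, at 0.47 ± 0.26 (adjusted p = 0.459; 0.75 with G0 CMP pool 2 left out, 0.27 with G4/G5 CMP pool 1 left out), and Birc3, a close relative of Birc2, in GMP, at 0.49 ± 0.17 (adjusted p = 0.595). The genotype medians of the list, 0.15 in CMP and 0.18 in GMP, stood beside 0.04 and 0.01 over all genes.

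In the list of further IkB family genes and other NF-kB inhibitors, 15 genes were tested. In G0, Commd1, which promotes the degradation of Rela, rose by 0.59 ± 0.15 in GMP (adjusted p = 0.0256), while 3 fell: Nfkbie, the inhibitor IkB-epsilon, by 1.08 (adjusted p = 0.0290), Nfkbiz, the nuclear IkB-zeta, by 0.98 (adjusted p = 0.0207), and the ubiquitin ligase Itch by 0.47 (adjusted p = 0.0387). Nfkbie read 105 and 186 in G0 CMP against 52.5 and 70.3 in G0 GMP, so this inhibitor lay with Tnfaip3 on the lower side in GMP; without G0 CMP pool 2 the difference was -0.70 and was no longer called (adjusted p = 0.118). In G4/G5 none of the 15 was called by limma, 2 reached an unadjusted p under 0.05, and Nfkbiz and Nfkbie stood at -0.72 and -0.71. Zfp36, which destroys cytokine messages, had the largest genotype difference in CMP, at -0.65 ± 0.66 (adjusted p = 0.705), and read 411 on G0 CMP pool 2 against 45.5 to 116 on the other 7 arrays; without that array the difference was 0.64.

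NF-kB target genes were mostly dim: of 30, all with a probe set, 12 were tested. Gadd45b, a stress-response gene, read 55.9 and 46.0 on the G0 and 136 and 83.4 on the G4/G5 arrays of CMP, and 157 and 244 on the G0 and 259 and 266 on the G4/G5 arrays of GMP. It rose from CMP to GMP by 1.76 ± 0.27 in G0 (adjusted p = 0.00579) and by 1.22 ± 0.27 in G4/G5 (adjusted p = 0.0283), and its genotype difference in CMP, 0.94 ± 0.27, did not pass (adjusted p = 0.277; 0.62 without G4/G5 CMP pool 1). Sod2, the mitochondrial superoxide dismutase, rose by 0.57 and 0.58 in the 2 genotypes (adjusted p = 0.0217 and 0.0334). Ier3, an early response gene, fell by 1.33 in G0 and fell by 1.49 in G4/G5 (adjusted p = 0.0182 and 0.0208), reading 108 to 209 in CMP and 40.0 to 57.0 in GMP. The called genes of this list thus differed in both directions between the stages, with list medians of -0.08 in G0 and -0.27 in G4/G5.

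Of the inflammasome genes, which process Il1b protein, 7 were tested. In G0 the sensor Mefv rose by 1.63 ± 0.36 (adjusted p = 0.0180), the protease Casp1 by 0.60 ± 0.13 (adjusted p = 0.0172) and the adaptor Pycard by 0.59 ± 0.12 (adjusted p = 0.0124) in GMP, while the cytokine Il18 fell by 1.52 (adjusted p = 0.00989). In CMP only G4/G5 pool 1, at 98.2, brought Mefv to the filter signal, so Mefv passed the filter only with its GMP arrays. A gene low in CMP thus had to be higher in GMP to be tested. Il18 read 99.5 and 168 in G0 CMP against 36.8 and 40.6 in G0 GMP. Il1b also read higher in CMP, but it stayed below the filter and its difference did not pass. In G4/G5 none was called by limma, 2 reached an unadjusted p under 0.05, and Mefv stood at 1.34 ± 0.36 (adjusted p = 0.0501). Casp1 read 310.0 and 368 in G0 CMP against 526 and 528 in G4/G5 CMP, a difference of 0.63 ± 0.13 that did not pass (adjusted p = 0.229). In CMP 3 of the 7 genes reached an unadjusted p under 0.05, beside 13.4% of all genes, and the list median was 0.33 against 0.04 over all genes.

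**Figure D5:**
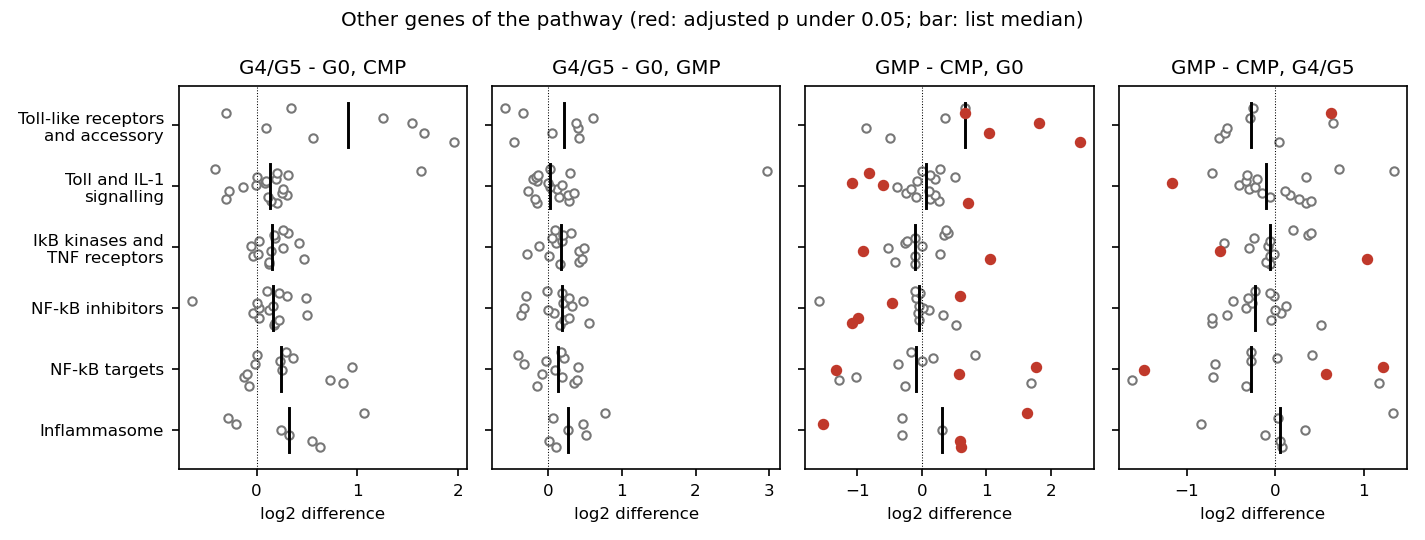
Log2 differences of the tested genes of the 6 pathway lists, the 5 described genes left out, with a bar at each list median and red points where the limma adjusted p was under 0.05. Red points appear only in the panels of GMP minus CMP, 21 in G0 and 7 in G4/G5, and the Toll-like receptor accessory list has its highest median, 0.91, in G4/G5 minus G0 in CMP.

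Genes whose log2 signals followed each member most closely over the 8 arrays were taken from the 8885 other tested genes, as a description only, since the arrays share 4 groups. Ncf4, a subunit of the phagocyte oxidase, was nearest to Tlr2 (Pearson r = 0.993), before Higd2a (0.983) and Jdp2 (0.981). The genes nearest to Rela were Stat4 (0.991), Bahcc1 (0.989) and D10Wsu102e (0.978), and those nearest to Tnfaip3 were Znrd1as (0.980), Fermt3 (0.980) and Klhdc1 (0.977). Tlr4 was followed by Zfp830 (0.976), Lonp1 (0.974) and Vegfa (0.974). Nfkbia, with Pxmp4 at 0.963, Serpinb6a at 0.958 and Ciao2a at 0.940, had 21 genes above 0.9, against 173 to 205 for the other 4.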

How the data were processed

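The 8 samples were hybridised to Affymetrix whole-genome mouse arrays from 5 to 10 ng of RNA. Per the labels and the series text, the deposited intensity values are MAS5 signals scaled by the authors to a target of 100; the table held 45101 probe sets. Here, log2(signal + 10) was fitted with limma 3.58.1 in R 4.3.3 (lmFit, eBayes with an intensity trend), with 1 mean per group over all 8 arrays, no block and Benjamini-Hochberg adjustment at 0.05. Genes entered the test when a probe set with 1 symbol had a signal of 50 or more on 2 arrays, the brightest such set standing for the gene; 932 probe sets with several symbols, 9160 with none and 64 controls were left out. Tables and figures used pandas 2.3.3 and matplotlib 3.10.9 in Python 3.11.15. The fit was tested on simulated data. Only 2 arrays a group limit the precision.

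Every member was named; of each pathway list, up to 4 called genes per direction and comparison with the largest differences, or up to 2 genes where none was called; and the 3 genes most correlated with each tested member. The members and lists were chosen with earlier results of these data known. Of the lists checked for other cells, 7 lymphoid markers summed to 932 to 1816, mostly from Nkg7, 10 erythroid and megakaryocyte markers to 2811 to 6293 in CMP and 758 to 1486 in GMP, 7 granulocyte and monocyte progenitor markers to 6417 to 24852 in CMP and 31372 to 36662 in GMP, and 5 sorting gate markers to 4077 to 6943. Alternatives changed the pseudocount, filter, normalization, probe set choice, block, arrays fitted and trend.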

Additional observations from a re-analysis of the deposited data

How the results depend on the processing

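Over the 5 tested genes and 6 comparisons, 578 values were recomputed under alternatives; 530 kept their direction and their side of the threshold, 27 lost a call, 2 gained one and 19 turned sign, all 19 without 1 array. The number of members called in G0 GMP against CMP, 2 at first, was 0 with no signal filter and 1 with a signal of 100 on at least 2 arrays (where Tlr4 was not tested) or with only the 4 arrays of the comparison, and 0 to 2 without 1 array. In G4/G5 it was also 2 at first, 1 with no signal filter, after quantile normalization or with only the 4 arrays, 0 with a signal of 100, and 0 to 2 without 1 array. In the mean over both progenitors it was 0 to 1 without 1 array, the 1 being Nfkbia without G4/G5 CMP pool 2. Without 1 array the lone array of a group was assumed to vary like the others. The 28 stage differences called in the lists (21 genes) never turned, and each call was kept in 8 to 20 alternatives of about 20.

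The series text names paired pools matched by age and sex. Same-numbered pools of the genotypes deviated together over genes with correlations of 0.247 in CMP and 0.139 in GMP, from only 2 pairs each. Those of CMP and GMP had correlations of 0.217 in G0 and 0.034 in G4/G5. The labels do not say whether CMP and GMP pools of a number share mice. The main fit used no block, so its SEs and p-values leave the pairing out. Pool number entered as a block only in alternatives. With the replicate block, shared by CMP and GMP or fitted within each cell type, 2 members were called in each stage comparison and 0 in the others, and no call of a member changed; within cell type the Tnfaip3 genotype difference in CMP had an adjusted p of 0.248. All genes called in G4/G5 GMP against CMP numbered 930 without and 1465 with that block, and in G0 1845 and 2356.

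Genotype differences that turned sign without 1 array ran as follows. In CMP, Nfkbia ran from -0.22 to 0.53, Rela from -0.17 to 0.31 and Tlr4 from -0.66 to 0.0015, and in GMP Rela from -0.066 to 0.14. In the mean, Rela ran from -0.069 to 0.17 and Tlr4 from -0.23 to 0.10. For the difference between GMP and CMP effects, Nfkbia ran from -0.26 to 0.49, Rela from -0.27 to 0.21 and Tnfaip3 from -0.20 to 0.064. GMP minus CMP of Nfkbia in G4/G5 ran from -0.49 to 0.26. Of the lists, Il1r2 ran from -0.42 to 3.68, Zfp36 from -1.93 to 0.64 and Vcam1 from -0.22 to 1.94 in CMP, and Csf1 from -0.87 to 0.061 in GMP. The cause of these changes was not tested beyond the arrays left out. Calls over all genes moved widely: G0 gave 1233 to 2844 under other settings and 67 to 2551 without 1 array, G4/G5 428 to 1465 and 65 to 1433, and the genotype comparisons 0 to 360 and 0 to 668. With 2 arrays a group, and signals of several members near the array median, a missed call does not show that groups were alike.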

Other observations

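Averaged over CMP and GMP, the 7 largest G4/G5 minus G0 differences among the listed genes were all above 0, though none passed limma's adjusted threshold. For Cd14 and Ly86 that mean came from CMP, at 1.96 and 1.66, against -0.46 and 0.05 in GMP. Il1r2, which passed the signal filter only through G4/G5 arrays, stood at 2.30 (limma adjusted p = 0.214) and at 1.27 without G4/G5 CMP pool 1. Lbp, the lipopolysaccharide-binding protein, read 55.0 and 109.6 on the G0 and 221 and 276 on the G4/G5 arrays of CMP, and 298 and 303 on the G0 and 394 and 392.2 on the G4/G5 arrays of GMP, with a mean difference of 0.96 ± 0.18 (adjusted p = 0.154). Its G4/G5 arrays lay above its G0 arrays in both progenitors, a pattern shared by 10.3% of all genes. Without G0 CMP pool 2 its mean difference was 1.18 and passed (adjusted p = 0.0140). The others were Unc93b1 at 0.93 (adjusted p = 0.211), which was 1.34 and passed without G0 CMP pool 2 (adjusted p = 0.0128), the inflammasome sensor Mefv at 0.92 (adjusted p = 0.187), Ly86 at 0.86 (adjusted p = 0.102), Cd14 at 0.75 (adjusted p = 0.318) and Gadd45b at 0.67 (adjusted p = 0.189). Of the 74 listed genes tested, 16 (21.6%) reached an unadjusted p under 0.05 in this mean, beside 17.8% of all genes, and 0 were called.

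The G4/G5 effect was lower in GMP than in CMP for several genes without passing the test of the difference (limma, adjusted p = 0.994 for each). Cd14 differed by -2.42 ± 0.72, Ly86 by -1.61 ± 0.27 and the inflammasome adaptor Pycard by -0.53 ± 0.16. Other genes went the other way, among them Il1r2 at 1.34 ± 1.52, Zfp36 at 1.12 ± 0.93 and Il18 at 0.68 ± 0.39. At a limma unadjusted p under 0.05, 7 of the 74 listed genes (9.46%) were reached in either direction, beside 3.97% of all genes. Pycard read 867 and 925 in G0 CMP and between 1292 and 1440.3 on the other 6 arrays, so G0 CMP was its low group.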
